A study of Mus musculus with 3 samples.

Results

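Patrolling monocytes of mouse blood were taken as 268 of the 16328 cells deposited for the series, and as 268 of the 7713 blood cells that could be assigned clearly to a hashed sample. The series is a single-cell RNA library of 8 hashed mouse samples, pooled after each was stained with its own DNA-tagged antibody (hashtag), together with libraries of the hashtags and of 35 antibodies in all. The 4 blood samples came from female mice of 2 to 3 months on a C57Bl/6 background. They were metastasis-bearing Hom with 78 patrolling monocytes, metastasis-bearing Het with 63, naive Hom with 52 and naive Het with 75. Metastasis-bearing mice had been given E0771 cells, a mouse mammary carcinoma line, into the carotid artery about 2 weeks before and had established brain metastases, and naive mice had none. The study used Cx3cr1+/-, Cx3cr1-/-, CCR2+/- and CCR2-/- mice. The hashtags of the blood samples are labelled Het or Hom with no gene named, so each group is called here by that word alone. Blood was drawn by cardiac puncture and its red cells were lysed, and the library held all remaining blood cells. Each group is 1 hashed sample, and the labels do not say how many mice went into it. There was therefore no replicate and no test, intervals cover counting error only, and the differences below describe these 4 samples.

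Members were chosen by measured values. They lie in the authors' blood clusters that hold monocytes, cluster 3 of the naive table and cluster 2 of the metastasis-bearing table. Their barcode stands in 1 table only, at least 0.5 of their hashtag counts come from that table's blood hashtags, and they have no count of Cd209a, a dendritic cell lectin. The summed corrected counts of Ace, Ear2, Treml4, Adgre4 and Eno3 had to exceed those of Ly6c2, Ccr2, Vcan, F13a1 and Fn1, genes of classical cells. Cells of the same clusters in which the second sum was the larger are called classical monocytes here, and there were 797 of them. Of the naive table's cells, 624 lay in the cluster, 357 were clear, 311 lacked Cd209a, and 127 became patrolling and 183 classical with 1 tie. Of the metastasis-bearing table's cells, 1118 lay in the cluster, 804 were clear and 759 lacked Cd209a; 141 became patrolling and 614 classical, with 4 ties. Few cells lay at the boundary. The 2 sums differed by 1 count in 5 naive members (patrolling sums of 5 to 9) and in 2 naive cells just outside (5 to 7). In the metastasis-bearing table this held for 2 members (10 to 13) and 5 cells just outside (0 to 13).

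Blood monocytes of the mouse fall into classical cells, which carry much surface Ly6C and the chemokine receptor CCR2 and enter inflamed tissue, and patrolling cells with little Ly6C, which crawl along the inner wall of vessels and clear debris from it. Patrolling cells develop mainly from classical ones under the nuclear receptor NR4A1. They carry much CX3CR1, the receptor for fractalkine on endothelium, and their survival in blood is known to lean on that receptor and on BCL2. In mouse models they have also been linked to the clearing of tumour cells from lung vessels.

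The tags that assigned each cell to its sample are shown because every comparison rests on them. They are 15 bases long, and the 6 pairs among the 4 hashtags differ at 7 to 12 positions, so that a misread base does not turn one into another. All letters are in lower case because no stretch is singled out.
Hashtag of metastasis-bearing Hom (M-HTO-8): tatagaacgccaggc
Hashtag of metastasis-bearing Het (M-HTO-6): tatgctgccacggta
Hashtag of naive Hom (M-HTO-7): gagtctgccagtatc
Hashtag of naive Het (M-HTO-5): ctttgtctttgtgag
Antibody against Ly6C, used by the authors to gate monocytes: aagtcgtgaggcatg
Antibody against NK1.1: gtaacattactcgtc
Antibody against CD3: gtatgtccgctcgat

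The label of low Ly6C was set beside the authors' antibody gates. The choice of members did not use the gates, but it used Ly6c2, which encodes the Ly6C antigen. Of the gated patrolling monocytes, 18 of 70 (25.7%) lay in the Ly6C-low gate in metastasis-bearing Hom blood, 2 of 2 in metastasis-bearing Het, 25 of 41 (61.0%) in naive Hom and 19 of 27 (70.4%) in naive Het. Classical monocytes lay there in 23 of 371 and 1 of 46 cells in metastasis-bearing Hom and Het, and 1 of 79 and 2 of 66 in naive Hom and Het. Patrolling cells were thus more often Ly6C-low than classical cells in metastasis-bearing Hom and in both naive samples. Metastasis-bearing Het had only 2 gated patrolling cells. Because the rule counted Ly6c2, this order is partly fixed by the choice of members and is no independent check. In metastasis-bearing Hom blood most patrolling cells, 42 of 70, stood in the Ly6C-high gate. The cells are therefore called patrolling by their RNA only. Only 2 patrolling and 46 classical cells of metastasis-bearing Het blood carry a Ly6C gate. In that sample 40 of 42 patrolling and 180 of 226 classical cells had been gated as NK1.1-positive. In metastasis-bearing Hom 1 of 71 and 0 of 371 had been. The RNA did not follow that gate. Klrb1c, the gene of NK1.1, and Klre1 had no count in any of the 4 groups, and the 4 NK cell genes together stood at 0.0761 and 0.0641 counts per 10000 corrected counts in metastasis-bearing Hom and Het, and 0.0379 and 0.0526 in naive Hom and Het. The CD3 gate likewise held 29 of 58 gated naive Het members and 1 of 42 naive Hom members, while Cd3e, a CD3 chain, had no count in naive Het members. Antibody gates are accordingly not used for any comparison below.

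The genes of the rule describe what was selected and are given without a test. Ace, the angiotensin-converting enzyme (chromosome 11, 105967948 to 105989964 of GRCm38.p6 in RefSeq), stood at 7.28 and 6.86 counts per 10000 in metastasis-bearing Hom and Het, and 6.75 and 6.07 in naive Hom and Het. Ear2, a ribonuclease whose reads could be shared with close paralogues (chromosome 14, 44102654 to 44103531), stood at 17.5 and 18.1 in metastasis-bearing Hom and Het, and 11.7 and 13.1 in naive Hom and Het. Ace lay within 1.5-fold across the samples, and Ear2 was higher in both metastasis-bearing samples. Treml4, a receptor that binds dying cells, lay between 3.97 and 4.71, and Adgre4, an adhesion receptor, between 4.49 and 6.06. Eno3, the muscle form of enolase, was the uneven gene of the 5, at 2.34 in metastasis-bearing Het against 4.79, 4.74 and 4.31 in metastasis-bearing Hom, naive Hom and naive Het. The opposing genes Vcan, F13a1 and Fn1 stayed at or below 1.12 in all 4 samples, and Vcan, a matrix proteoglycan, had no count in naive Hom members.

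Patrolling monocytes yielded more unique molecules of RNA per cell than clear blood cells as a whole. Their median total of unique molecules (UMIs) was 10602.5 and 10794 in metastasis-bearing Hom and Het, and 8819.5 and 8080 in naive Hom and Het. Over all clear cells the medians were 4276 and 3960.5 in metastasis-bearing Hom and Het, and 4709 and 3928.5 in naive Hom and Het. After the authors' correction for depth, the summed counts were 394177 and 311812 in metastasis-bearing Hom and Het, and 263558 and 380453 in naive Hom and Het. Some members carried RNA of another blood cell. A sum of 8 neutrophil genes (S100a8, S100a9 and others) reached 37.4 and 178 counts per 10000 in metastasis-bearing Hom and Het, and 31.2 and 111 in naive Hom and Het. Camp, 1 of the 8, was at 0 in both metastasis-bearing samples. The sum of 5 B cell genes was 7.15 and 11.5 in metastasis-bearing Hom and Het, and 15.6 and 16.7 in naive Hom and Het. The sum of 6 T cell genes was between 0.0789 and 0.911, that of 5 platelet genes between 0.127 and 0.341, and that of 4 haemoglobin genes between 0.706 and 0.946 except in naive Hom, where it was 21.8 with 94.4% of it in 1 cell. Het samples were thus richer in neutrophil RNA under both conditions. Members with at least 20 neutrophil, 5 B cell or 3 T, NK or platelet marker counts were set aside in a second calculation, which left 61 and 31 cells in metastasis-bearing Hom and Het, and 34 and 46 in naive Hom and Het. These are called single-lineage members, and their values are given where they change a result. Their levels of the neutrophil, B cell, T, NK and platelet marker genes are partly fixed by this choice. Microglia genes stood at 1.28 to 1.98, with Tmem119 at 0.0379 at most, and body cavity macrophage genes at 0.0641 to 0.228 with Gata6 at 0 throughout. Dendritic cell genes summed to between 0.0526 and 0.257, and Xcr1 was at 0 in all 4 samples.

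Patrolling monocytes made up a few percent of clear blood cells in each sample. The share was 4.01% in metastasis-bearing Hom (95% exact binomial interval 3.18 to 4.98), 3.04% in metastasis-bearing Het (2.34 to 3.87), 2.63% in naive Hom (1.97 to 3.43) and 4.37% in naive Het (3.45 to 5.45). The interval of naive Hom lay just below that of naive Het, and the 2 metastasis-bearing intervals overlapped. Hom was thus lower than Het in naive blood and higher than Het in metastasis-bearing blood. Among monocytes the picture turned on the classical cells, which numbered 379 and 235 in metastasis-bearing Hom and Het, and 92 and 91 in naive Hom and Het. Patrolling cells made up 17.1% of 457 monocytes in metastasis-bearing Hom (13.7 to 20.8), 21.1% of 298 in metastasis-bearing Het (16.6 to 26.2), 36.1% of 144 in naive Hom (28.3 to 44.5) and 45.2% of 166 in naive Het (37.5 to 53.1). Both metastasis-bearing intervals lay below both naive ones, while those of Hom and Het overlapped under each condition. There were 4.86 and 3.73 classical cells for each patrolling cell in metastasis-bearing Hom and Het, and 1.77 and 1.21 in naive Hom and Het. With single-lineage members only, the share of clear cells was 3.14% in metastasis-bearing Hom, 1.49% in metastasis-bearing Het, 1.72% in naive Hom and 2.68% in naive Het. Hom and Het then lay farther apart in metastasis-bearing blood and closer in naive blood than among all members. Intervals were not calculated for these shares, and the share among monocytes was not repeated with them. The overlaps given above therefore cover all members only. A share of a suspension also moves with every other cell type in it, and cell numbers per volume of blood were not measured.

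**Figure D1:**
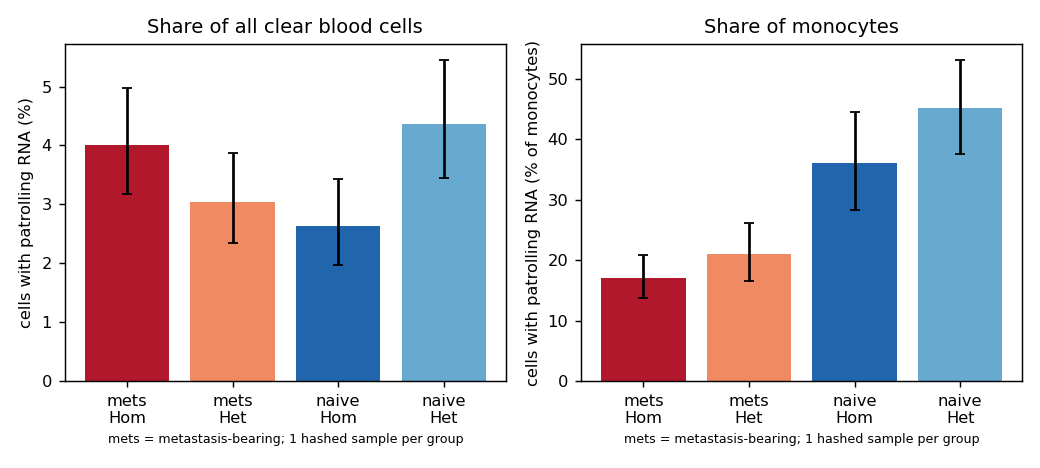
Share of patrolling monocytes among clear blood cells (left) and among patrolling plus classical monocytes (right), in percent, for the 4 hashed samples, with 95% exact binomial intervals. Among monocytes, metastasis-bearing samples stood at 17.1% and 21.1% and naive samples at 36.1% and 45.2%.

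Cx3cr1, the fractalkine receptor (chromosome 9, 120048683 to 120068296 of GRCm38.p6 in RefSeq), was low in patrolling monocytes of both Hom samples. It stood at 0.355 counts per 10000 in metastasis-bearing Hom (exact Poisson 95% interval 0.194 to 0.596), 3.27 in metastasis-bearing Het (2.67 to 3.97), 0.531 in naive Hom (0.290 to 0.891) and 4.65 in naive Het (3.99 to 5.39). The log2 ratio of Hom to Het, with 1 count added to each sum, was -3.10 in metastasis-bearing blood (-4.12 to -2.39) and -3.06 in naive blood (-4.03 to -2.35), and no Hom interval reached a Het interval. A count of Cx3cr1 was seen in 13 of 78 (16.7%) and 50 of 63 (79.4%) members in metastasis-bearing Hom and Het, and 11 of 52 (21.2%) and 65 of 75 (86.7%) in naive Hom and Het. Cells of the authors' B cell clusters, which should lack the receptor and had 4257 to 4865 median UMIs, carried a count in 8.72% of 321 and 10.6% of 573 in metastasis-bearing Hom and Het, and 12.3% of 807 and 11.9% of 436 in naive Hom and Het. With each cell thinned to 2000 corrected counts the shares were 5.13% and 54.0% in metastasis-bearing Hom and Het, and 5.77% and 60.0% in naive Hom and Het among patrolling cells. Among B cells they were 4.05% and 4.36% in metastasis-bearing Hom and Het, and 4.21% and 5.96% in naive Hom and Het. At 2000 corrected counts per cell, then, Hom patrolling monocytes stood near the B cells and Het ones far above, though the raw UMI totals behind these counts were higher in patrolling cells. Classical monocytes had 0.245 and 1.94 counts per 10000 in metastasis-bearing Hom and Het, and 0.435 and 2.02 in naive Hom and Het. The Het values lay below the intervals of patrolling cells, while the Hom values lay within them. At 2000 corrected counts per cell, 5.01% and 29.8% of classical cells had a count in metastasis-bearing Hom and Het. In naive Hom and Het 8.70% and 35.2% did, so in naive Hom the share was not lower than in patrolling cells.

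The tables also list EGFP, the transcript of green fluorescent protein, which in commonly used knock-in mice replaces the coding sequence of Cx3cr1. It stood at 0.583 in metastasis-bearing Hom (0.370 to 0.876), 0.0641 in metastasis-bearing Het (0.00777 to 0.232), 0.531 in naive Hom (0.290 to 0.891) and 0.342 in naive Het (0.182 to 0.584). EGFP was found in 22 of 78 and 2 of 63 members in metastasis-bearing Hom and Het, and 11 of 52 and 10 of 75 in naive Hom and Het. B cells had no EGFP count, which allows shares of cells with a count, not of cells expressing it, of up to 0.935% of 321 and 0.524% of 573 cells in metastasis-bearing Hom and Het, and 0.372% of 807 and 0.688% of 436 in naive Hom and Het. Among patrolling members, those of metastasis-bearing Het had hardly any. The log2 ratio of Hom to Het in members was 2.73 in metastasis-bearing blood (1.17 to 6.31) and 0.59 in naive blood (-0.56 to 1.84), where the intervals overlapped. With each cell thinned as above, EGFP was found in 7 of 78 and 2 of 63 members in metastasis-bearing Hom and Het. In naive Hom and Het it was then found in 4 of 52 and 4 of 75. Classical monocytes did not share the metastasis-bearing difference, with EGFP in 36 of 379 and 27 of 235 cells in Hom and Het. Their levels were 0.213 and 0.254. In naive Hom and Het, 24 of 92 and 8 of 91 classical cells had EGFP. Of the 10 naive Het members with EGFP, 9 also had Cx3cr1, while of the 22 in metastasis-bearing Hom 18 had EGFP without Cx3cr1, and of the 11 in naive Hom 8 did. RFP, the red fluorescent transcript of a knock-in into Ccr2, had 5 counts in 1 naive Het cell and none in the other samples. Cxcl10, an interferon-induced chemokine, had 1 and 0 counts in metastasis-bearing Hom and Het, and 4 and 2 in naive Hom and Het, too few to compare.

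Ccr2 (chromosome 9, 124101918 to 124109140) is the receptor that lets classical monocytes leave the marrow, and it entered the rule as an opposing gene. It stood at 4.26 in metastasis-bearing Hom (3.64 to 4.96), 1.92 in metastasis-bearing Het (1.47 to 2.48), 3.04 in naive Hom (2.41 to 3.78) and 3.26 in naive Het (2.71 to 3.89). Metastasis-bearing Het was the low sample, and the naive samples overlapped. The log2 ratio of Hom to Het was 1.14 in metastasis-bearing and -0.10 in naive blood, and 0.72 and -0.44 in single-lineage members. Classical monocytes had 18.3 and 22.3 counts per 10000 in metastasis-bearing Hom and Het, and 18.4 and 19.1 in naive Hom and Het. Ly6c2, which encodes the Ly6C antigen and whose reads could be shared with Ly6c1, stood at 1.75 (1.36 to 2.22) and 0.673 (0.417 to 1.03) in metastasis-bearing Hom and Het, and 1.25 (0.862 to 1.76) and 0.552 (0.342 to 0.844) in naive Hom and Het. It too is an opposing gene of the rule, so its values and those of Ccr2 describe the selected cells and support nothing further. The log2 ratios of Hom to Het were 1.34 in metastasis-bearing and 1.14 in naive blood, and 0.70 in naive single-lineage members.

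**Figure D2:**
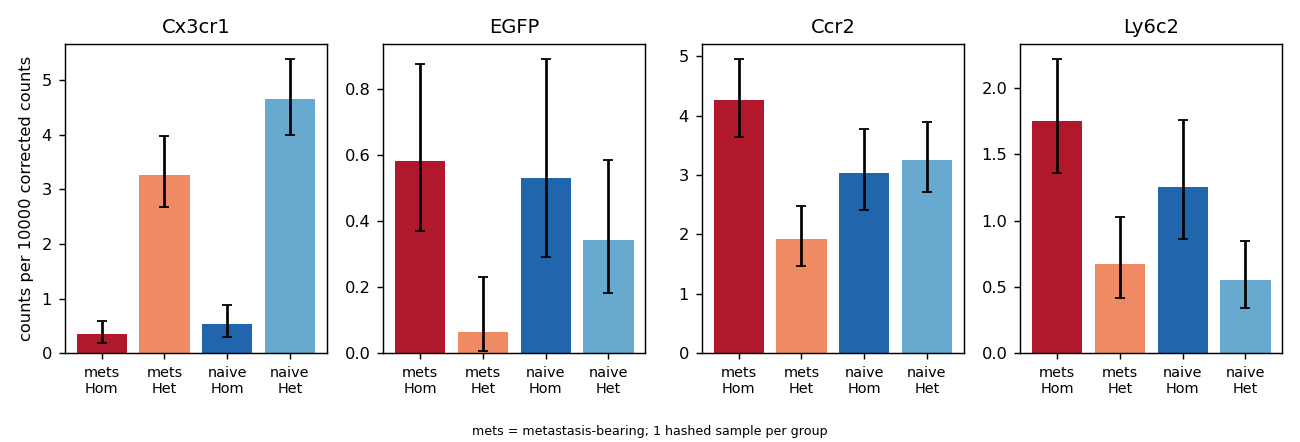
Cx3cr1, EGFP, Ccr2 and Ly6c2 in patrolling monocytes of the 4 hashed samples, in counts per 10000 corrected counts (axis from 0), with exact Poisson 95% intervals. Cx3cr1 stood at 0.355 and 0.531 in the 2 Hom samples and at 3.27 and 4.65 in the 2 Het samples.

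Levels below are counts per 10000 corrected counts, with exact Poisson 95% intervals in brackets, and ratios are log2 ratios with the 95% interval of counting error. Genes were called past the threshold when they differed at least 1.5-fold and had at least 20 counts in at least 1 of the 2 samples. Metastasis-bearing and naive samples stand in 2 tables that the authors normalised separately. In 845 barcodes that both tables hold, which the rule leaves out of the members, the median log2 ratio of the metastasis-bearing to the naive table over 9410 of 16151 shared genes was 0.020, and 0 genes were past 1.5-fold. The part of the separate normalisation in the differences between members was not tested. Genes of the lists that are named only because they passed it, together with F11r, Hp, Irf7 and Isg15, were chosen after their values were seen. Among Het members 188 of 3385 genes (5.55%) were higher and 456 (13.5%) lower in metastasis-bearing than in naive blood. Among Hom members 341 of 3319 (10.3%) were higher and 334 (10.1%) lower. In both comparisons, which share no sample, 44 of 2969 genes (1.48%) were higher and 60 (2.02%) lower. Of these 2969 genes, 231 were higher in Hom and 144 in Het members, and 310 and 314 were lower.

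Chil3, a chitinase-like secreted protein, stood at 24.6 counts per 10000 in metastasis-bearing Hom (23.1 to 26.2), 30.6 in metastasis-bearing Het (28.7 to 32.6), 3.68 in naive Hom (2.98 to 4.49) and 1.66 in naive Het (1.27 to 2.12). The metastasis-bearing samples were 6.64-fold above naive blood in Hom and 18.2-fold in Het members. It was found in 58 of 78 and 46 of 63 cells in metastasis-bearing Hom and Het, and 22 of 52 and 18 of 75 in naive Hom and Het. Classical monocytes had 99.1 and 143 counts in metastasis-bearing Hom and Het, and 50.3 and 32.5 in naive Hom and Het, the same order of conditions at a higher level. In single-lineage members the log2 ratios were 3.26 in Hom and 4.08 in Het, against 2.73 and 4.18 in all members. Among naive members Chil3 was higher in Hom than in Het, at a log2 ratio of 1.14, which was 0.40 in single-lineage members.

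Rbm3, a cold-inducible RNA-binding protein, stood at 8.12 and 7.70 in metastasis-bearing Hom and Het, and 2.85 and 2.58 in naive Hom and Het, with log2 ratios of metastasis-bearing to naive of 1.5 in Hom (1.15 to 1.90) and 1.57 in Het (1.23 to 1.93). Tgfbi, a matrix protein induced by TGF-beta, stood at 9.03 and 6.29 in metastasis-bearing Hom and Het, and 2.58 and 2.50 in naive Hom and Het, with ratios of 1.80 (1.43 to 2.20) and 1.32 (0.97 to 1.70). Both genes were high in both metastasis-bearing samples and almost equal in the 2 naive ones. S100a4, a calcium-binding protein of motile cells, stood at 21.3 and 15.1 in metastasis-bearing Hom and Het, and 9.79 and 8.70 in naive Hom and Het, with ratios of 1.12 and 0.79. Rbm3 was found in 77 of 78 and 61 of 63 metastasis-bearing members and in 37 of 52 and 54 of 75 naive ones. In classical monocytes Rbm3 stood at 11.9 and 9.99 in metastasis-bearing Hom and Het, and 4.29 and 3.99 in naive Hom and Het. Tgfbi stood there at 11 and 10.5 in metastasis-bearing Hom and Het, and 5.16 and 6.11 in naive Hom and Het. Both genes were thus higher in metastasis-bearing samples in classical cells too.

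Clec4a2, an inhibitory lectin receptor, was also higher, at 0.888 and 1.28 in metastasis-bearing Hom and Het, and 0.341 and 0.342 in naive Hom and Het, with ratios of 1.30 (0.29 to 2.62) in Hom and 1.82 (0.98 to 2.94) in Het. Afdn, an adaptor of cell junctions, stood at 0.660 and 0.673 in metastasis-bearing Hom and Het, and 0.266 and 0.158 in naive Hom and Het. Tusc1 had ratios of 1.36 and 1.55. These were genes of low level, and the intervals of the Clec4a2 and Afdn ratios lay above 0 in both comparisons. Retnlg, a secreted product of neutrophils, was higher as well, at 2.99 and 11.2 in metastasis-bearing Hom and Het, and 1.18 and 3.73 in naive Hom and Het (ratios of 1.33 and 1.58), but the ratios were -1.0 and -0.26 in single-lineage members. Retnlg is 1 of the 8 neutrophil genes whose counts set members aside, so its single-lineage ratios are partly fixed by that choice. The neutrophil sum moved with Retnlg in Het samples, and its part in the result was not tested.

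Glucocorticoid-induced genes formed a small group. Ddit4, an inhibitor of mTORC1, stood at 1.80 (1.41 to 2.27) and 1.70 (1.27 to 2.22) in metastasis-bearing Hom and Het, and 0.266 (0.107 to 0.547) and 0.447 (0.260 to 0.715) in naive Hom and Het, with ratios of metastasis-bearing to naive of 2.63 (1.64 to 4.13) in Hom and 1.86 (1.12 to 2.81) in Het. Fkbp5, a chaperone of the glucocorticoid receptor, stood at 0.507 and 1.03 in metastasis-bearing Hom and Het, and 0.0379 and 0.105 in naive Hom and Het, where the naive Hom value rests on 1 count. Sgk1, a kinase, stood at 1.09 and 0.770 in metastasis-bearing Hom and Het, and 0.683 and 0.447 in naive Hom and Het. Of the 10 listed genes 6 had enough counts, and these 3 were past the threshold in both comparisons, with no gene lower, though the Het ratio of Sgk1 was -0.18 in single-lineage members. The list's median ratio was 0.57 in Hom and 0.62 in Het, against 0.00 and -0.08 over all genes, and 0.61 and 0.11 in single-lineage members. Tsc22d3, the leucine zipper protein GILZ and the member with the widest use as a steroid marker, stood at 2.71 and 2.63 in metastasis-bearing Hom and Het, and 1.94 and 1.92 in naive Hom and Het, with ratios of 0.48 and 0.45 under the threshold.

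Other genes were lower in metastasis-bearing blood. Cd83, a surface protein of activated antigen-presenting cells, stood at 0.304 (0.157 to 0.532) and 0.192 (0.0706 to 0.419) in metastasis-bearing Hom and Het, and 0.911 (0.583 to 1.35) and 0.894 (0.619 to 1.25) in naive Hom and Het, with ratios of -1.49 in Hom and -2.06 in Het. Pparg, a nuclear receptor of lipid metabolism, stood at 0.304 and 0.289 in metastasis-bearing Hom and Het, and 0.759 and 0.999 in naive Hom and Het, with ratios of -1.24 and -1.69. The metastasis-bearing interval of Cd83 lay below the naive one in Hom and in Het members, and that of Pparg in Het members, while in Hom members it overlapped. Nol8, a nucleolar protein, stood at 0.0761 and 0.0962 in metastasis-bearing Hom and Het, and 0.455 and 0.552 in naive Hom and Het. H2-Q6, a non-classical MHC class I gene, stood at 0.178 and 0.224 in metastasis-bearing Hom and Het, and 0.987 and 0.552 in naive Hom and Het, and its reads could be shared with its near-identical neighbours. Others past the threshold in both comparisons were Mrpl21, Susd6, Arap1, Aftph, Aqr, Adprh, Trib1 and Ift20, with ratios between -0.84 and -1.48.

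Some heat shock genes were lower too. Hsp90aa1, a chaperone, stood at 1.47 and 1.92 in metastasis-bearing Hom and Het, and 2.54 and 3.26 in naive Hom and Het. Its partner gene Hsp90ab1 stood at 5.78 and 6.51 in metastasis-bearing Hom and Het, and 9.56 and 9.65 in naive Hom and Het. The co-chaperone Dnaja1 stood at 1.42 and 1.25 in metastasis-bearing Hom and Het, and 2.54 and 2.26 in naive Hom and Het. All 3 were lower in both metastasis-bearing samples than in either naive one. Of 8 listed genes, 3 of 5 with counts were lower in Hom and 2 of 6 in Het, with none higher, and medians of -0.72 and -0.56 (single-lineage -0.66 and -0.45) against 0.00 and -0.08 over all genes. Hspa8, the most abundant member, did not share this, at 15.3 and 10.8 in metastasis-bearing Hom and Het, and 14.0 and 12.6 in naive Hom and Het. Hes1, a repressor downstream of Notch, which is known to steer monocytes to the patrolling state, stood at 1.22 and 1.54 in metastasis-bearing Hom and Het, and 2.16 and 2.39 in naive Hom and Het, with ratios of -0.81 and -0.63. Hmox1, haem oxygenase, was higher, at 1.5 and 1.86 in metastasis-bearing Hom and Het, and 0.683 and 0.920 in naive Hom and Het, with ratios of 1.1 and 0.99 that were 0.41 and 0.36 in single-lineage members.

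**Figure D3:**
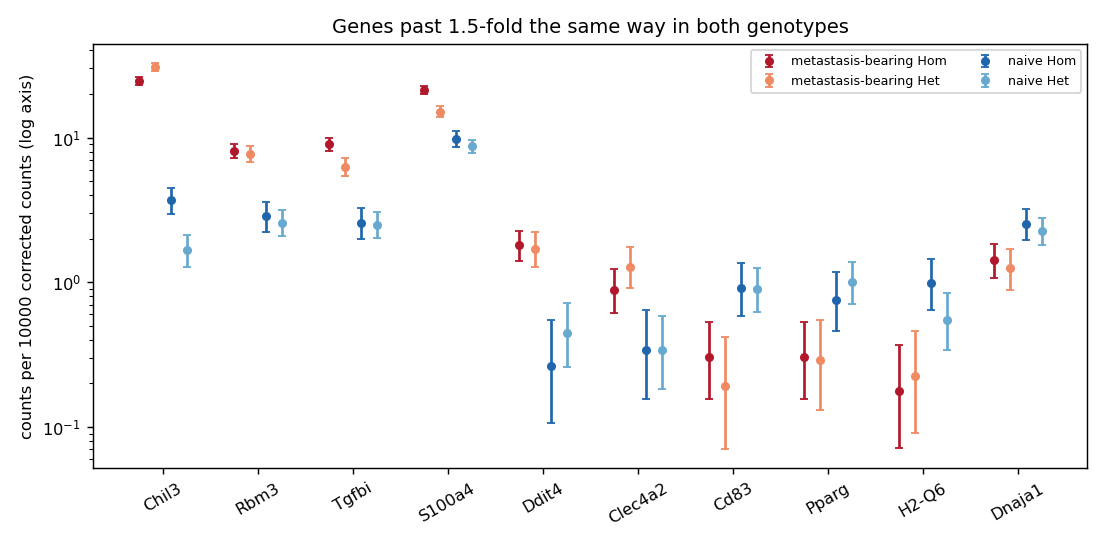
Levels of 10 genes in patrolling monocytes of the 4 hashed samples, in counts per 10000 corrected counts on a log axis, with exact Poisson 95% intervals. Chil3, Rbm3, Tgfbi, S100a4, Ddit4 and Clec4a2 were higher in both metastasis-bearing samples than in both naive samples, and Cd83, Pparg, H2-Q6 and Dnaja1 lower.

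Between Hom and Het, 315 of 3377 genes (9.33%) were higher and 284 (8.41%) lower in metastasis-bearing blood, and 163 of 3319 (4.91%) were higher and 327 (9.85%) lower in naive blood. Few genes did so in both, which share no sample: 10 of 2961 (0.338%) were higher in Hom and 49 (1.65%) lower, while 42 were past the threshold in opposite directions. Of these 2961 genes, 198 were higher in Hom in metastasis-bearing and 137 in naive blood, and 243 and 244 were lower. How many genes unrelated lists of these sizes would share was not tested. One of the genes higher in both, Ly6c2, belongs to the rule. The others included Gfpt1, the entry enzyme of hexosamine synthesis, at 0.913 and 0.545 in metastasis-bearing Hom and Het, and 1.48 and 0.657 in naive Hom and Het (ratios of 0.72 in metastasis-bearing and 1.13 in naive blood). Kctd20 stood at 0.761 and 0.257 in metastasis-bearing Hom and Het, and 0.987 and 0.631 in naive Hom and Het, with a naive ratio that was -0.09 over all deposited cells. Aftph, Retreg3, Slain2, Cmc1, Gtf2b and Atf7 were low genes with ratios of 0.60 to 1.19. Besides Cx3cr1 the lower genes included Zmynd11, a reader of methylated histone, at 0.203 and 0.738 in metastasis-bearing Hom and Het, and 0.152 and 0.552 in naive Hom and Het, with ratios of -1.73 (-3.23 to -0.65) and -1.67 (-3.87 to -0.30), and of -1.53 and -1.55 in single-lineage members.

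Of the 8 neutrophil genes, 5 had counts in both comparisons, and all 5 (S100a8, S100a9, Retnlg, Cxcr2 and Lcn2) were lower in Hom in both. S100a8, a subunit of calprotectin, stood at 13.5 and 75.7 in metastasis-bearing Hom and Het, and 13 and 47.4 in naive Hom and Het. Its partner S100a9 stood at 19.3 and 83.7 in metastasis-bearing Hom and Het, and 16.0 and 55.9 in naive Hom and Het. Both were several times higher in the Het samples, with ratios of -2.48 and -1.87 for S100a8 and of -2.12 and -1.80 for S100a9. In single-lineage members the S100a8 ratios had the other sign, at 0.11 in metastasis-bearing and 0.65 in naive blood, and those of S100a9 were -0.15 and -0.01. Lcn2, an iron-sequestering lipocalin, stood at 0.609 and 3.24 in metastasis-bearing Hom and Het, and 0.114 and 2.05 in naive Hom and Het, with ratios of -0.30 in metastasis-bearing and -2.64 in naive single-lineage members. Cxcr2, the neutrophil chemokine receptor, stood at 0.786 and 3.17 in metastasis-bearing Hom and Het, and 0.797 and 2.08 in naive Hom and Het, and its ratios were 0.38 and 0.28 in single-lineage members. Il1b, an inflammatory cytokine that monocytes also make, stood at 3.93 and 6.13 in metastasis-bearing Hom and Het, and 3.49 and 7.15 in naive Hom and Het. Its ratios were -0.64 in metastasis-bearing and -1.03 in naive blood, but 1.1 and -0.81 in single-lineage members. Single-lineage members were chosen by a low sum of the 8 neutrophil genes. The single-lineage ratios of S100a8, S100a9, Retnlg, Cxcr2 and Lcn2 are therefore partly fixed by the choice and are no independent check. The part of neutrophil RNA in these differences was not tested. Ifitm1, a membrane protein of the interferon-induced family, stood at 1.98 and 5.71 in metastasis-bearing Hom and Het, and 0.455 and 3.57 in naive Hom and Het, and its ratios were -4.34 in metastasis-bearing and -1.53 in naive single-lineage members. H2-Q10, a secreted MHC class I protein, stood at 0.304 and 1.06 in metastasis-bearing Hom and Het, and 0.341 and 1.1 in naive Hom and Het, with ratios of -1.71 and -1.61 that were -1.63 and -0.14 in single-lineage members.

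**Figure D4:**
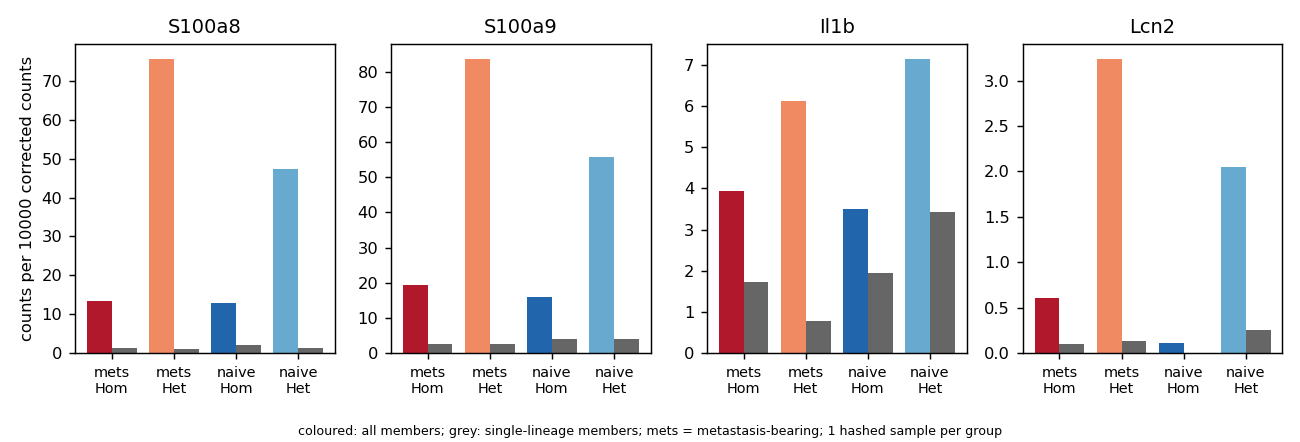
S100a8, S100a9, Il1b and Lcn2 in the 4 hashed samples, in counts per 10000 corrected counts, with all patrolling members in colour and single-lineage members in grey. Among all members S100a8 stood at 13.5 and 13 in the Hom samples and at 75.7 and 47.4 in the Het samples.

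Naive Hom members stood apart from the other 3 samples in a group of MHC class I and interferon-related genes. H2-Q7, a non-classical class I gene whose reads could be shared with H2-Q6 and others, stood at 0.913 (0.640 to 1.26) and 0.994 (0.676 to 1.41) in metastasis-bearing Hom and Het, and 4.70 (3.91 to 5.61) and 1.47 (1.11 to 1.91) in naive Hom and Het, so only naive Hom was high. Its log2 ratio to naive Het was 1.66 (1.21 to 2.16), and that of metastasis-bearing Hom to naive Hom was -2.33 (-2.94 to -1.82). Classical monocytes showed the same order, at 0.142 and 0.140 in metastasis-bearing Hom and Het, and 1.42 and 0.279 in naive Hom and Het. H2-K1, a classical class I heavy chain, stood at 12.9 and 13.9 in metastasis-bearing Hom and Het, and 29.0 and 20.1 in naive Hom and Het and was found in every member. Its ratio of metastasis-bearing Hom to naive Hom was -1.17 (-1.34 to -1.01), while naive Hom over naive Het was 0.53. Of 13 listed class I genes, 3 (H2-Q6, H2-Q7 and Tap1) were higher in naive Hom than in naive Het and none was lower, with a median of 0.46 against -0.04 over all genes. In metastasis-bearing Hom, 7 were lower than in naive Hom (H2-K1, H2-Q6, H2-Q7, H2-T23, Tap1, Tap2 and Psmb9), with a median of -0.68 against 0.00. In Het members 2 were lower in metastasis-bearing blood (H2-Q6 and H2-M3; median -0.26), and between metastasis-bearing Hom and Het only Tap2 was past the threshold, lower in Hom, of 12 with counts (median 0.00). The medians in single-lineage members were 0.44, -0.76, -0.41 and 0.07 in the order of these 4 comparisons.

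AW112010, a long transcript induced by interferon-gamma, stood at 0.660 and 1.12 in metastasis-bearing Hom and Het, and 2.43 and 0.894 in naive Hom and Het. Ifi205, an interferon-inducible nucleic acid sensor with close paralogues, stood at 0.0507 and 0.128 in metastasis-bearing Hom and Het, and 0.759 and 0.0263 in naive Hom and Het, where all samples but naive Hom had 4 counts or fewer. Gbp2, an interferon-induced GTPase, stood at 0.127 and 0.192 in metastasis-bearing Hom and Het, and 0.911 and 0.289 in naive Hom and Het. Each of these was highest in naive Hom, with log2 ratios to naive Het of 1.41 for AW112010, 3.78 for Ifi205 and 1.56 for Gbp2. Other interferon genes were lowest in the same sample. Slfn5, a Schlafen family gene, stood at 2.87 (2.36 to 3.45) and 1.76 (1.33 to 2.30) in metastasis-bearing Hom and Het, and 0.531 (0.290 to 0.891) and 2.31 (1.86 to 2.85) in naive Hom and Het, with a ratio of naive Hom to naive Het of -2.06 (-3.05 to -1.30). Isg15, a ubiquitin-like modifier, stood at 0.533 and 0.385 in metastasis-bearing Hom and Het, and 0.228 and 1.05 in naive Hom and Het. Outside the interferon genes Wfdc17, a small secreted protein, stood at 7.64 and 6.41 in metastasis-bearing Hom and Het, and 1.21 and 5.39 in naive Hom and Het. Dpep2, a membrane dipeptidase, stood at 1.07 and 0.738 in metastasis-bearing Hom and Het, and 0.114 and 0.473 in naive Hom and Het. Hp, haptoglobin, stood at 9.54 and 7.60 in metastasis-bearing Hom and Het, and 4.59 and 8.99 in naive Hom and Het. All 3 were lowest in naive Hom. Snrpb2, a spliceosome protein, stood at 1.14 and 1.09 in metastasis-bearing Hom and Het, and 1.67 and 0.631 in naive Hom and Het.

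Over the 25 listed interferon response genes the 4 comparisons differed. In metastasis-bearing blood 7 of 15 with counts were higher in Hom than in Het (Irf7, Oas1a, Ifi27l2a, Ifi204, Ifi47, Rtp4 and Slfn5) and none lower, with a median of 0.52 against 0.02 over all genes. In naive blood 1 of 14 was higher in Hom and 4 lower (Isg15, Oasl2, Rtp4 and Slfn5), with a median of -0.12 against -0.04. Between conditions 8 of 14 were lower in metastasis-bearing Het than in naive Het, with a median of -0.59, while in Hom 4 of 15 were higher and 2 lower, with a median of 0.08. Ifi27l2a, an interferon-induced protein, stood at 16.2 (15.0 to 17.5) and 8.69 (7.69 to 9.79) in metastasis-bearing Hom and Het, and 14.5 (13 to 16.0) and 20.3 (18.9 to 21.7) in naive Hom and Het. Ifitm3, a restriction factor of virus entry, stood at 42.6 and 29.9 in metastasis-bearing Hom and Het, and 42.3 and 46.4 in naive Hom and Het. Irf7, the interferon regulatory factor, stood at 1.45 and 0.673 in metastasis-bearing Hom and Het, and 1.37 and 1.24 in naive Hom and Het. In single-lineage members the list's medians were 0.45, -0.15, -0.31 and -0.02 in the same order of comparisons, and the ratios of Ifi27l2a were 0.51 between metastasis-bearing Hom and Het and -0.80 between metastasis-bearing and naive Het.

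MHC class II genes went the other way in the 2 Hom to Het comparisons. H2-Ab1, a class II beta chain, stood at 6.52 (5.75 to 7.37) and 10.3 (9.17 to 11.5) in metastasis-bearing Hom and Het, and 8.92 (7.81 to 10.1) and 5.41 (4.70 to 6.21) in naive Hom and Het, with ratios of Hom to Het of -0.65 in metastasis-bearing and 0.72 in naive blood. H2-Aa stood at 8.52 and 13.1 in metastasis-bearing Hom and Het, and 12 and 7.75 in naive Hom and Het. H2-Eb1 stood at 5.0 and 7.83 in metastasis-bearing Hom and Het, and 8.5 and 5.20 in naive Hom and Het. Cd74, the invariant chain, stood at 27.4 and 37.8 in metastasis-bearing Hom and Het, and 47.5 and 32.5 in naive Hom and Het. Metastasis-bearing Het and naive Hom were the high samples for all 4 genes. Of the 9 listed genes 3 of 6 were lower in Hom in metastasis-bearing blood (median -0.54) and 5 of 7 higher in Hom in naive blood (median 0.70), with none in the other direction. Between conditions 4 of 7 were higher in metastasis-bearing Het than in naive Het (median 0.59), and 2 of 6 (H2-Eb1 and Cd74) were lower in metastasis-bearing Hom than in naive Hom (median -0.49). B cells also express these genes. The sum of B cell markers was 7.15 and 11.5 in metastasis-bearing Hom and Het, and 15.6 and 16.7 in naive Hom and Het, and its part in the result was not tested. In single-lineage members the medians were -0.13, 1.31, 1.09 and -0.52, so the naive difference was wider and that between metastasis-bearing Hom and Het narrower. H2-Aa was found in 23 of 78 and 37 of 63 members in metastasis-bearing Hom and Het, and 29 of 52 and 34 of 75 in naive Hom and Het.

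Between metastasis-bearing Hom and Het a further group of genes differed. Plac8, a cysteine-rich protein abundant in classical monocytes, stood at 65.5 (63.0 to 68.0) and 30.5 (28.6 to 32.5) in metastasis-bearing Hom and Het, and 29.8 (27.7 to 31.9) and 22.8 (21.3 to 24.4) in naive Hom and Het, so that metastasis-bearing Hom was the high sample. The ratio was 1.1 (0.99 to 1.21) to metastasis-bearing Het and 1.14 (1.02 to 1.25) to naive Hom, and the ratio to Het was 0.73 in single-lineage members. Fcgr1, the high-affinity receptor for immunoglobulin G, stood at 1.65 and 0.577 in metastasis-bearing Hom and Het, and 0.607 and 1.13 in naive Hom and Het. Milr1, an inhibitory receptor of mast cells and other myeloid cells, stood at 1.40 and 0.385 in metastasis-bearing Hom and Het, and 0.911 and 0.867 in naive Hom and Het. Fcgr1 was higher in Hom in metastasis-bearing blood (ratio 1.47, 0.74 to 2.36) and lower in Hom in naive blood (-0.86, -1.82 to -0.04). Cd36, a scavenger receptor for oxidised lipid, stood at 1.24 and 3.14 in metastasis-bearing Hom and Het, and 2.20 and 2.29 in naive Hom and Het, lowest in metastasis-bearing Hom, with a ratio of -1.32 to metastasis-bearing Het that was -0.61 in single-lineage members. F11r, a junctional adhesion molecule, stood at 0.939 and 0.321 in metastasis-bearing Hom and Het, and 0.304 and 0.158 in naive Hom and Het. Pttg1, the securin of cell division, stood at 0.685 and 0.224 in metastasis-bearing Hom and Het, and 0.835 and 0.894 in naive Hom and Het, low in metastasis-bearing Het. Ccl5, a chemokine of lymphocytes, stood at 2.18 in metastasis-bearing Het against 0.101, 0.493 and 0.131 in metastasis-bearing Hom, naive Hom and naive Het, with 94.1% of it in 1 cell. Stfa2l1, a neutrophil stefin, stood at 0.482 and 3.37 in metastasis-bearing Hom and Het, and 0.0759 and 0.421 in naive Hom and Het, and in single-lineage members at 0 in all but naive Het.

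**Figure D5:**
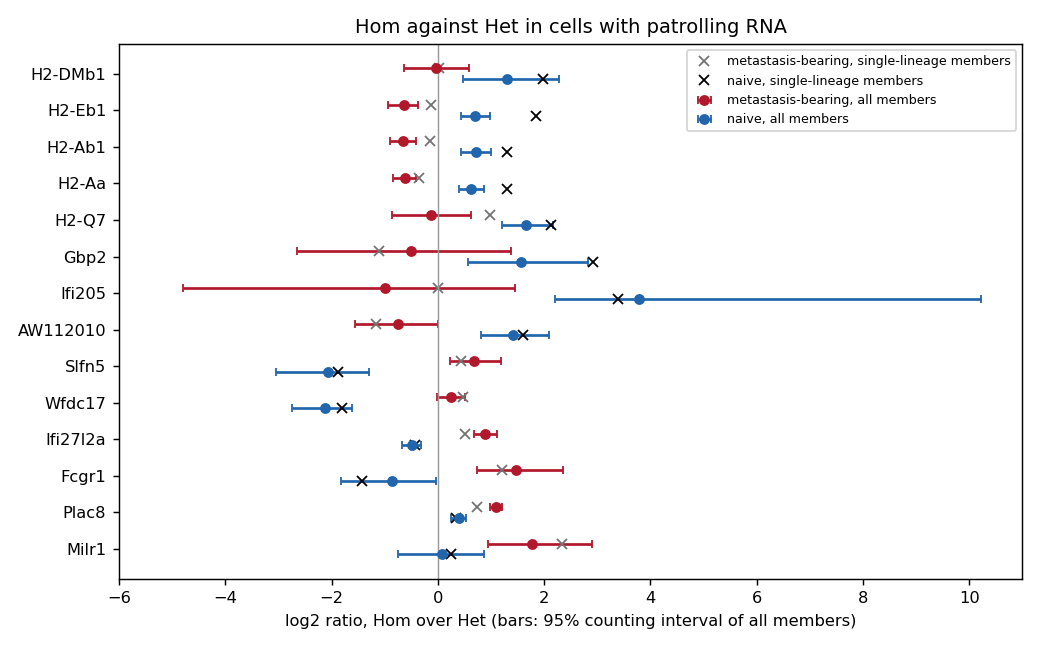
Log2 ratio of Hom to Het for 14 genes in metastasis-bearing (red) and naive (blue) blood, with points for all patrolling members, bars for their 95% intervals from counting, and crosses for single-lineage members. Slfn5 stood at 0.69 in metastasis-bearing and -2.06 in naive blood, and H2-Ab1 at -0.65 and 0.72, on opposite sides of 0.

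Several regulators and identity genes of patrolling cells lie outside the rule. Nr4a1, the nuclear receptor they depend on, stood at 4.24 and 5.13 in metastasis-bearing Hom and Het, and 5.77 and 4.99 in naive Hom and Het. Csf1r, the receptor for the growth factor that keeps them alive, stood at 8.45 and 7.41 in metastasis-bearing Hom and Het, and 8.20 and 8.99 in naive Hom and Het. Spn, which encodes the marker CD43, stood at 3.75 and 4.39 in metastasis-bearing Hom and Het, and 4.97 and 4.13 in naive Hom and Het. Cebpb, a transcription factor they need, stood at 21.1 and 17.9 in metastasis-bearing Hom and Het, and 27.8 and 21.8 in naive Hom and Het. No ratio among the 4 comparisons reached 1.5-fold for these 4 genes. Pou2f2, a transcription factor of patrolling cells, stood at 8.88 and 8.34 in metastasis-bearing Hom and Het, and 13.5 and 11 in naive Hom and Het, lower in metastasis-bearing Hom than in naive Hom by a ratio of -0.61. Of 25 listed patrolling genes 24 had counts. Past the threshold 3 were lower in metastasis-bearing Hom than Het (Itgax, Cd36 and Cd9; median 0.00), and in naive blood 2 were higher in Hom (Slc12a2 and Tcf7l2) and 1 lower (Cd300e; median 0.10). Between conditions 5 were lower in Hom (Cd36, Pou2f2, Cd9, Hes1 and Slc12a2) with none higher (median -0.39), and 4 were lower in Het (Pglyrp1, Cd300e, Hes1 and Clec4a1) and 1 higher (Itgax; median -0.25). Both medians lay below those of all genes, 0.00 and -0.08. Over all genes 9.33% were higher and 8.41% lower in metastasis-bearing Hom than Het, and 4.91% and 9.85% in naive Hom than Het. Between conditions 10.3% were higher and 10.1% lower in Hom, and 5.55% and 13.5% in Het. The 4 of 24 patrolling genes lower in Het lay near that share. These shares stand beside the counts of every list here.

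Of 15 listed classical genes outside the rule, 13 had counts, and 5 were higher in metastasis-bearing Hom than in naive Hom (among them Chil3, Plac8, Hp and S100a4; median 0.16) with none lower, where 10.3% of all genes were higher. In Het 3 were higher (Chil3 and S100a4 among them) and Ifi27l2a lower (median 0.06), where 5.55% of all genes were higher. The medians in single-lineage members were 0.40 in Hom and -0.11 in Het. Between Hom and Het, 3 were higher (Plac8, Ms4a4c and Ifi27l2a) and 1 lower in metastasis-bearing blood (median 0.15), and Chil3 was higher and 2 lower, Hp among them, in naive blood (median 0.10). Median classical sums of the rule were 3 and 1 counts per cell in metastasis-bearing Hom and Het, and 2 and 1 in naive Hom and Het. Median patrolling sums were 20 and 16 in metastasis-bearing Hom and Het, and 15 and 14 in naive Hom and Het.

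Survival genes bear on the known dependence of these cells on fractalkine signals. Bcl2 stood at 1.40 (1.05 to 1.82) and 1.31 (0.944 to 1.78) in metastasis-bearing Hom and Het, and 2.05 (1.54 to 2.67) and 2.02 (1.60 to 2.53) in naive Hom and Het, close between Hom and Het under both conditions with log2 ratios of 0.08 (-0.52 to 0.71) and 0.02 (-0.51 to 0.54). Classical cells had at most 0.174. Mcl1, another protein of this family, stood at 6.04 and 6.77 in metastasis-bearing Hom and Het, and 8.39 and 8.86 in naive Hom and Het. Bcl2a1b, of a group of near-identical genes whose reads could be split, stood at 1.12 and 1.76 in metastasis-bearing Hom and Het, and 2.81 and 2.47 in naive Hom and Het. Bcl2a1d stood at 0.863 and 1.67 in metastasis-bearing Hom and Het, and 2.12 and 2.08 in naive Hom and Het. Both were lowest in metastasis-bearing Hom. Of 19 listed genes 13 had counts. In metastasis-bearing blood Bcl2a1a, Bcl2a1b and Bcl2a1d were lower in Hom and none higher (median -0.03), and in naive blood 1 gene was higher and Xiap lower in Hom (median 0.02). Between conditions Xiap was higher and the 3 Bcl2a1 genes and Cflar lower in Hom (median -0.34), and Bcl2 and Cflar were lower in Het (median -0.32). The 2 of 13 lower in Het lay near the 13.5% of all genes that were lower there.

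Genes of crawling and guidance followed. Itgal, the alpha chain of the integrin LFA-1 with which patrolling cells hold on to endothelium, stood at 9.56 and 9.88 in metastasis-bearing Hom and Het, and 9.94 and 8.73 in naive Hom and Het. Its partner Itgb2 stood at 6.32 and 7.18 in metastasis-bearing Hom and Het, and 8.20 and 7.12 in naive Hom and Het. Neither reached 1.5-fold in any comparison. Of 17 listed adhesion genes 15 had counts. F11r was higher and 3 genes, with Itgax and Cd44 among them, lower in metastasis-bearing Hom than Het (median -0.17), and 1 was lower in naive Hom (median -0.08). Between conditions 2 were higher in Hom, F11r among them, and Itgb7 lower (median -0.06), and 2 were higher in Het, Itgax among them, and Pecam1 lower (median 0.02). Of 15 chemokine and guidance receptors other than Ccr2, which the rule used, 7 had counts, or 6 in the Hom comparison of conditions. Cx3cr1, Ccr1 and Cxcr2 were lower in metastasis-bearing Hom than Het (median -0.52), and Fpr2 was higher and Cx3cr1 and Cxcr2 lower in naive Hom (median -0.49). Between conditions C5ar1 was higher and S1pr5 lower in Hom (median 0.37), and Ccr1, Cxcr2, Fpr2 and C5ar1 were higher in Het (median 0.61). In single-lineage members these receptor medians were 0.67, 0.27, 0.28 and -0.46. Ccr1 had ratios of the other sign there, at 0.67 between metastasis-bearing Hom and Het and -0.23 between metastasis-bearing and naive Het, and C5ar1 and Cxcr2 did between metastasis-bearing and naive Het, at -0.54 and -0.23. Fpr2 in naive blood turned to -0.04 without members holding 2 or more B cell, T, NK or platelet marker counts.

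Immediate early genes also respond to cell handling. Of 18 listed, 4 of 13 were lower in metastasis-bearing Hom than Het (Fos, Egr1, Ier5 and Dusp1; median -0.30) and 6 of 16 in naive Hom (Jun, Egr1, Ier2, Ier3, Atf3 and Btg2; median -0.49), with none higher. In single-lineage members the medians were -0.05 and -0.34, and Fos and Dusp1 had ratios of the other sign in metastasis-bearing blood, at 0.31 and 0.54. Egr1, a transcription factor of this kind, stood at 0.710 and 1.44 in metastasis-bearing Hom and Het, and 1.1 and 1.89 in naive Hom and Het, with ratios of Hom to Het of -0.99 in metastasis-bearing and -0.77 in naive blood that were -0.07 and -0.44 in single-lineage members. Between conditions Jund and Egr1 were lower in Hom (2 of 13; median -0.19) and Jun, Ier3 and Atf3 in Het (3 of 16; median -0.16). Among 19 inflammatory genes Tnf was higher and Il1b lower in metastasis-bearing Hom than Het (10 with counts; median 0.10), and Il1b, Tnf, Ccl3 and Ccl4 were lower in naive Hom (12; median -0.24). Ccl3 was higher and Cd83 lower in metastasis-bearing Hom than in naive Hom (11; median -0.12), and Tnf, Ccl3, Ccl4 and Cd83 were lower in metastasis-bearing Het than in naive Het (12; median -0.37). In this last comparison Ccl3 and Ccl4 had ratios of the other sign in single-lineage members, both at 0.33. Of the naive Het counts, 60.7% of Ccl3 and 27.5% of Ccl4 lay in 1 cell for each gene. Their ratios of naive Hom to naive Het, -2.29 and -1.87, were -0.06 and -0.33 in single-lineage members, where Il1b and Tnf stayed lower. Of the metastasis-bearing Hom counts of Ccl3, 37.0% lay in 1 cell.

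Of lipid genes, Apoe, a carrier that patrolling cells express strongly, stood at 38.9 (36.9 to 40.9) and 46.5 (44.1 to 49.0) in metastasis-bearing Hom and Het, and 40.2 (37.8 to 42.7) and 65.0 (62.5 to 67.6) in naive Hom and Het, highest in naive Het. Its ratio of naive Hom to naive Het was -0.69 (-0.80 to -0.59). Fabp5, a fatty acid binding protein, stood at 0.964 and 2.21 in metastasis-bearing Hom and Het, and 0.873 and 1.08 in naive Hom and Het. Of 15 listed, Abcg1 and Trem2 were higher and Cd36 and Fabp5 lower in metastasis-bearing Hom than Het (10 with counts; median -0.22), though the Fabp5 ratio was 0.41 over all deposited cells, and Apoe and Pltp were lower in naive Hom (10; median -0.32). Msr1 and Trem2 were higher and Cd36 and Pparg lower in metastasis-bearing than in naive Hom (11; median -0.04). In Het, Msr1 and Fabp5 were higher and Abcg1, Pparg and Pltp lower (11; median 0.33).

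The remaining lists gave few genes past the threshold. Of 6 Fc receptor genes, whose members share sequence, Fcgr1 alone passed, higher in Hom in metastasis-bearing blood (median 0.17) and lower in naive Hom (median -0.25), higher in metastasis-bearing than in naive Hom (0.36) and lower in Het (-0.16). Of 11 complement genes 5 had counts, and Itgax was lower in metastasis-bearing Hom than Het (median -0.40 over the list), C5ar1 was higher in metastasis-bearing than in naive Hom (0.25), and C5ar1 and Itgax were higher in Het (0.53). Slc40a1, the iron exporter, was lower in metastasis-bearing Hom than Het (1 of 5 iron genes among 6 listed; median -0.46) and none of 4 passed in naive blood (-0.01). Hmox1 was the iron gene higher in metastasis-bearing than in naive Hom (1 of 4; -0.05), and with Slc40a1 in Het (2 of 5; 0.34). In single-lineage members Slc40a1 had ratios of the other sign, at 0.81 between metastasis-bearing Hom and Het and -0.87 between metastasis-bearing and naive Het. Of 13 glycolysis genes 8 had counts, and Tpi1 was higher in naive Hom than in naive Het (median 0.10) and lower in metastasis-bearing than in naive Hom (0.03), with 0 past the threshold in the other comparisons (medians of 0.08 and 0.06). Of 14 checkpoint and suppressor genes 5 had counts, and Havcr2 was higher and Cd274 lower in metastasis-bearing than in naive Het (median 0.01), with 0 past it elsewhere (medians of -0.14, 0.09 and -0.02). Heat shock genes had 0 past the threshold between Hom and Het (medians of 0.18 and 0.04), and glucocorticoid-induced genes had Fkbp5 and Dusp1 lower in metastasis-bearing Hom than Het (median -0.16) and 0 of 3 in naive blood (0.11).

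Patrolling cells were set beside classical cells of the same samples as a description, since the cells were sorted by their own genes. All members were used, those with RNA of another blood cell included, and the counts were not repeated in single-lineage members. Of 8863 genes with at least 20 counts over both kinds of cell, 987 (11.1%) were at least 1.5-fold higher in patrolling cells in all 4 samples and 282 (3.18%) at least 1.5-fold lower. Higher by this measure were 18 of 24 listed patrolling genes, 7 of 14 guidance receptors, 6 of 16 adhesion genes, 6 of 19 survival genes, 6 of 18 immediate early genes, 6 of 18 inflammatory genes, 5 of 13 class I genes, 4 of 13 lipid genes, 3 of 9 class II genes and 3 of 9 glucocorticoid-induced genes. Interferon response genes ran the other way, with 0 of 24 higher and 7 lower, and of the 15 classical genes 0 were higher and 12 lower. The remaining lists gave 2 higher and 2 lower of 11 complement genes and also of 8 checkpoint genes, 1 and 1 of 6 Fc receptor genes, 2 and 0 of 8 heat shock genes, 2 and 0 of 5 iron genes, and 1 and 0 of 12 glycolysis genes. Lower by the same measure were 2 of the adhesion and 2 of the inflammatory genes, 1 each of the guidance, lipid and class II genes, and 0 of the patrolling, survival, immediate early, class I and glucocorticoid-induced genes. Cxcr2 was among the guidance receptors counted as higher. In single-lineage members it stood at 0.0979 in metastasis-bearing Hom and 0.0861 in naive Het, below the 0.180 and 0.214 of classical cells. In metastasis-bearing Het and naive Hom it stayed above them, at 0.0655 and 0.115 against 0.0526 and 0.0218. Lyz2, lysozyme of the myeloid lineage, stood at 125 and 112 in metastasis-bearing Hom and Het, and 151 and 143 in naive Hom and Het in patrolling cells, within 1.5-fold of each other.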

How the data were processed

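Whole-blood cells were sequenced in 1 droplet library of hashed samples with 3' counting, for which the submitters' processing notes name Cell Ranger 3.1 and the build mm10. The deposited tables hold natural log values of 1 plus a count that the authors had corrected for depth with SCTransform, separately for each of the 2 blood tables. Per the file headers, deposited cell descriptions give raw UMI and hashtag counts, the authors' clusters and their antibody gates.

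The natural log values were turned back, which gave whole numbers to within 1.18e-11, and these corrected counts were summed over the members of each hashed sample. They are not raw counts, so no count model was fitted for a test. The intervals treat corrected counts as if they were counted molecules, so they can misstate the counting error of the raw data. Tests planned for replicates did not apply to groups of 1 sample. Levels are per 10000 corrected counts with exact Poisson 95% intervals. Shares have exact Clopper-Pearson intervals, and ratios are log2 with 1 count added and exact conditional binomial intervals. All cover counting error only. No doublet caller was run: cells of mixed hashtags were left out, and single-lineage members, chosen after seeing the data, are an alternative. The sums were tested on simulated data.

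Genes were named where they were of the rule, where they were among the 5 with the farthest interval bound each way in a comparison, where they passed the threshold in both paired comparisons, or as the 6 highest of a list. Some genes are not reported here, so a list's count can exceed the genes named beside it. Members, the 18 lists and the alternatives were chosen with earlier results of these data known. Gene positions are those of RefSeq on GRCm38.p6. Python 3.11.15, numpy 2.4.6, pandas 2.3.3, scipy 1.17.1 and matplotlib 3.10.9 were used.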

Additional observations from a re-analysis of the deposited data

Results flagged for a closer look

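Of the 42 genes past 1.5-fold with opposite signs between Hom and Het members in metastasis-bearing and in naive blood, the 8 that are described here are given with their values. In 2 lists at least 3 genes passed one way in metastasis-bearing blood and at least 3 the other way in naive blood. With 1 sample a group, the difference between the 2 conditions was not tested. In single-lineage members each of the 10 had the same pair of signs. The ratios of H2-Aa, H2-Ab1, H2-Eb1 and Slfn5 in metastasis-bearing blood nevertheless fell under 1.5-fold there. Those of AW112010, Fcgr1, Rtp4 and Tnf stayed at 1.5-fold or more both ways.

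For AW112010 the log2 ratio of Hom to Het was -0.74 in metastasis-bearing and 1.41 in naive blood, so that naive minus metastasis-bearing was 2.15. For Slfn5 the ratios were 0.69 in metastasis-bearing and -2.06 in naive blood, a difference of -2.75. Fcgr1 had 1.47 and -0.86 in metastasis-bearing and naive blood, a difference of -2.33, while Rtp4 had 0.72 and -1.05, a difference of -1.77. Tnf had 0.76 and -0.96 in metastasis-bearing and naive blood, a difference of -1.72. H2-Ab1 had -0.65 and 0.72 in metastasis-bearing and naive blood, a difference of 1.37, H2-Aa had -0.62 and 0.63, a difference of 1.25, and H2-Eb1 had -0.64 and 0.70, a difference of 1.35. Over the interferon response genes counted in both comparisons the median ratios were 0.58 in metastasis-bearing and -0.12 in naive blood, and the median of the gene differences was -0.77. Over the MHC class II genes the medians were -0.54 in metastasis-bearing and 0.71 in naive blood, and the median of the gene differences was 1.30. In single-lineage members the H2-Ab1 ratios were -0.15 in metastasis-bearing and 1.31 in naive blood. In the same order those of H2-Aa were -0.35 and 1.30, those of H2-Eb1 -0.12 and 1.84, and those of Slfn5 0.43 and -1.88. The medians there were -0.13 and 1.46 for the class II genes and 0.46 and -0.15 for the interferon response genes.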

How the results depend on the processing

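No paired analysis was possible because each group is 1 hashed sample and no replicate numbers link samples. Of 260 gene ratios past the threshold or otherwise described, 36 left their 95% interval in single-lineage members and 21 more changed sign. Over all deposited cells 46 left it and 7 changed sign, and after thinning 24 and 7. Without members holding 2 or more B cell, T, NK or platelet marker counts, 24 left it and 1 changed sign. With clear cells of any cluster 17 and 0 did so, with patrolling counts at least 2 times the classical ones 17 and 1, and without the tenth of members with the most UMIs 13 and 1. At a hashtag share of 0.9, 10 left it and with Cd209a-positive cells kept 5, with 0 changes of sign, and weighting each cell equally moved 0 out of its interval.

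Some ratios changed sign in single-lineage members. Between metastasis-bearing Hom and Het they became 0.11 for S100a8, 0.38 for Cxcr2, 0.67 for Ccr1, 0.54 for Dusp1, 0.31 for Fos, 1.1 for Il1b and 0.81 for Slc40a1. Between naive Hom and Het they became 0.65 for S100a8 and 0.28 for Cxcr2. Between metastasis-bearing and naive Het they became -0.54 for C5ar1, 0.33 for Ccl3 and Ccl4, -0.23 for Ccr1 and Cxcr2, -0.76 for Lcn2, -0.26 for Retnlg, -0.25 for S100a8, -0.18 for Sgk1, and -0.87 for Slc40a1 and Stfa2l1. Between metastasis-bearing and naive Hom Retnlg became -1.0. Over all deposited cells Fabp5 became 0.41 and Ifi47 -0.05 between metastasis-bearing Hom and Het, Kctd20 -0.09 between naive Hom and Het, Sgk1 -0.22 between the Het samples, and Ifitm1 -0.22, Lcn2 -0.11 and Retnlg -0.09 between the Hom samples. After thinning Slain2 became -0.04 between metastasis-bearing Hom and Het, Cflar 0.49, Ier3 0.63, Lcn2 -0.14 and Rtp4 0.33 between the Het samples, and Ifi47 0.38 and Oasl2 -0.04 between the Hom samples. Between the Het samples Ccl3 became 0.90 with patrolling counts at least 2 times the classical ones and 0.06 without the tenth of members with the most UMIs. Fpr2 became -0.04 between naive Hom and Het without members holding 2 or more B cell, T, NK or platelet marker counts. The choice of single-lineage members used the counts of S100a8, Cxcr2, Lcn2 and Retnlg, so the changes of these genes there are partly fixed by it. The cause of the changes was not tested.

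Over all deposited cells the Cx3cr1 ratio was -2.35 in metastasis-bearing and -1.99 in naive blood, and the naive Hom share was 3.53%. Without members holding 2 or more B cell, T, NK or platelet marker counts, the shares were 1.83% in metastasis-bearing Het, 1.26% in naive Hom and 2.04% in naive Het. The naive Ccr2 ratio was then -0.57. Single-lineage shares were 3.14% and 1.49% in metastasis-bearing Hom and Het and 1.72% and 2.68% in naive Hom and Het.

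Counts of genes past the threshold moved with the minimum count by construction. Between metastasis-bearing Hom and Het 599 genes passed, against 1464 at a minimum of 10, 128 at 50, 4663 with none, 252 after thinning and 395 in single-lineage members. Between naive Hom and Het 490 passed, against 1263, 107, 4813 and 229 for the same 4 settings. Without members holding 2 or more B cell, T, NK or platelet marker counts 305 passed. Between metastasis-bearing and naive Hom 675 passed, against 1622, 146, 4878 and 282. In Het 644 passed, against 1474, 120, 4933 and 263, and 400 without the members with 2 or more lymphocyte or platelet marker counts. Low genes rest on few counts, and no setting replaces a second sample.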
